A study of Mus musculus with 2 samples.

Results

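Genomic imprinting is the silencing of a gene on the chromosome from one parent, so that RNA is made mainly from the other parental copy. Imprinted genes lie in clusters, each with an imprinting control region whose DNA methylation is set in the egg or the sperm and then kept through cell division. Several of them act on growth of the embryo and placenta, with paternally expressed genes often promoting growth and maternally expressed genes often restraining it, and several are transcribed in embryonic muscle and decline after birth. The genes described here are 10 imprinted growth-control genes, H19, Meg3, Peg3, Mest, Grb10, Plagl1, Ndn, Nnat, Peg10 and Zim1, found by their symbols in the expression files. Of these, 8 had a row among 21829 genes, and H19 and Meg3, the long non-coding RNAs of the set, had none, so that their levels were not analysed here.

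The data are the RNA sequencing of C2C12, an immortalised mouse myoblast line, with 1 library from wild-type cells (WT) and 1 from cells in which Gne was edited (KO). Gne encodes the bifunctional epimerase and kinase that starts sialic acid synthesis, and the KO line came from transfection with Cas9 and a guide RNA and isolation of single clones, with an indel in exon 2. Both cultures were grown in the same serum-containing medium and differ in no other stated treatment, and WT is the parental line while KO is described as a clone, so that an effect of Gne and a property of the clone cannot be told apart. With 1 library per line there is no replicate error and no test, and all differences below are differences between these 2 libraries. Levels are FPKM, fragments per kilobase of transcript scaled to the size of the library, a unit inferred from the values. Differences are log2((KO + 1)/(WT + 1)), on which the change of a gene with low values appears smaller than it was, and a gene counts as higher or lower when this value is above 1 or below -1.

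Gne itself was at 6.67 FPKM in WT and 7.34 FPKM in the KO-labelled library, so the amount of its RNA did not separate the edited line from WT. Column totals were 568410 and 574144 FPKM, and the number of reads is not given with the values. From the lowest values of single-transcript genes, 1 fragment was estimated to be worth 0.0376 FPKM in WT and 0.0428 FPKM in the KO-labelled library on a transcript of 1 kb. Among 8 markers of myoblasts, the summed level was 261 FPKM in WT and 67.1 FPKM in the KO-labelled library, with Pax7 listed at 0 in both. Myod1, the muscle-determining transcription factor, was at 59.97 FPKM in WT and listed at 0 in the KO-labelled library, and Des, the muscle intermediate filament gene, was at 97.6 and 3.84 FPKM. Of the 7 myoblast markers averaging 1 FPKM or more, 1 was higher and 4 were lower by the limit given above. The higher one was Myf5, at 9.137 FPKM in WT and 20.291 FPKM in the KO-labelled library. The 4 lower ones were Myod1, Des, Cdh15 and Chrna1. Itga7, at 47.44 and 28.351 FPKM, and Ncam1, at 14.724 and 12.985 FPKM, were neither, so the myoblast markers did not all shift in the same way. The 8 markers of differentiated muscle summed to 3.53 and 5.18 FPKM. The 6 fibroblast markers summed to 75.2 and 368 FPKM, of which Col1a1 made 9.66 and 273 FPKM, and Thy1 and Lum were listed at 0 in both. The 6 adipocyte markers summed to 16.5 and 40.6 FPKM, with Adipoq and Plin1 listed at 0 in both. Lpl was at 0.893 and 17.8 FPKM and Cebpa at 5.44 and 13.1 FPKM, while Pparg was at 10.2 and 9.31 FPKM. Fabp4 was listed at 0 and at 0.321 FPKM. The 4 endothelial markers summed to 0.010 and 0.028 FPKM. The 4 macrophage markers summed to 2.90 and 1.14 FPKM, nearly all from Cd68, with Ptprc and Adgre1 listed at 0 in both. The part of these shifts in the values of imprinted genes was not tested. In bulk RNA, fewer cells that express a gene and less RNA per cell cannot be told apart.

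To place the imprinted genes by level, the values of both libraries were first set side by side. Peg10, Peg3 and Mest were the members with a mean of 1 FPKM or more. The 5 others with a row, Plagl1, Nnat, Grb10, Zim1 and Ndn, did not exceed 0.1 FPKM in either library, as did 9413 of all 21829 genes. All 3 members with a mean of 1 FPKM or more are genes known as paternally expressed, out of 6 such members, and 0 of the 2 maternally expressed members with a row, Grb10 and Zim1, reached it. The files do not separate the parental alleles, so the allele of origin was not measured. In WT the order of levels was Peg10, Peg3 and Mest. In the KO-labelled library it was Peg3 and then Peg10, with Mest listed at 0.

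**Figure D1:**
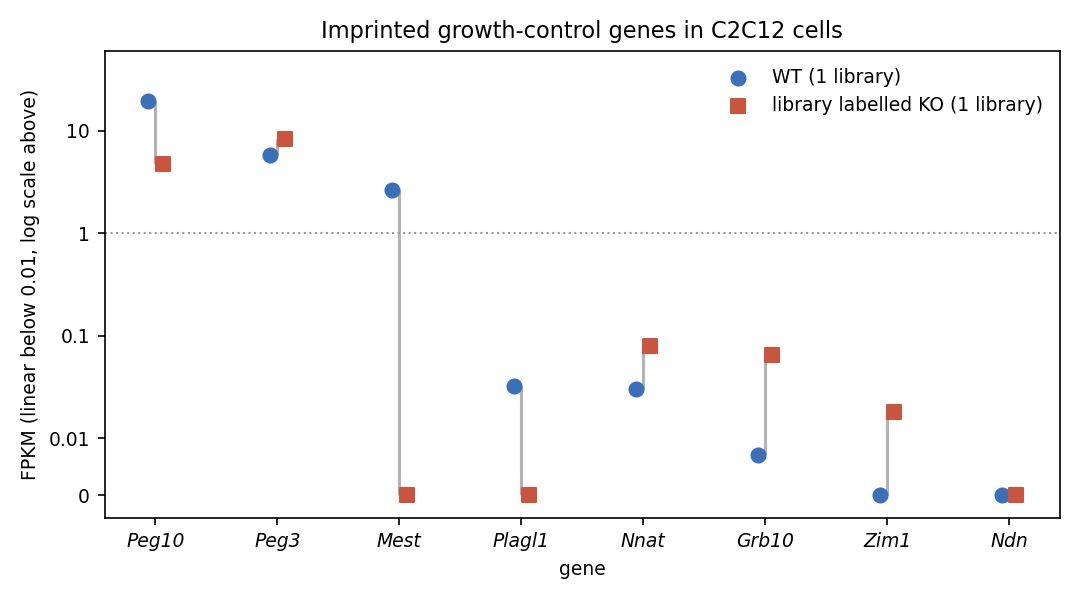
FPKM of the 8 imprinted growth-control genes with a row, in WT (circles) and in the KO-labelled library (squares), 1 library each, on an axis that is linear below 0.01 and logarithmic above, with a dotted line at 1 FPKM. Peg10 went from 19.3 to 4.70 FPKM and Peg3 from 5.78 to 8.28 FPKM, Mest was at 2.61 FPKM in WT and listed at 0 in the KO-labelled library, and the other 5 lie under 0.1 FPKM in both.

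Peg10, a paternally expressed gene derived from an ancient retrotransposon and needed for formation of the placenta, had the highest level of the set in WT and was lower in the KO-labelled library. Its value was 19.3 FPKM in WT, above 79.4% of all genes, and 4.70 FPKM in the KO-labelled library, above 60.5% of all genes. This is a level 4.10 times higher in WT and a log2 fold change of -1.83, and 1.03% of the 10542 genes with a mean of 1 FPKM or more had a lower log2 fold change. On its canonical transcript of 6567 bases, these levels correspond to an estimated 3370 fragments in WT and 720 in the KO-labelled library.

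Mest is a paternally expressed gene of the hydrolase fold family, long used as a marker of imprinted growth in the embryo. It was at 2.61 FPKM in WT and listed at 0 in the KO-labelled library. No fold is given against a value of 0, and whether this 0 is a failed estimate was not tested. The WT level corresponds to an estimated 87.7 fragments on the canonical transcript of 1262 bases and 435 on the longest annotated transcript of 6259 bases. Mest is counted as lower, because the count uses log2(value + 1).

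Peg3, a paternally expressed zinc-finger gene with roles in growth and maternal behaviour, was the member with a mean of 1 FPKM or more that had the higher value in the KO-labelled library. It was at 5.78 FPKM in WT and 8.28 FPKM in the KO-labelled library, 1.43 times higher, with a log2 fold change of 0.45. This lies under the limit of 1, and 88.0% of the 10542 genes had a lower log2 fold change. Peg10 was thus at 3.34 times the FPKM of Peg3 in WT and at 0.568 times in the KO-labelled library.

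Among the 10542 genes, 2.84% were higher and 3.43% were lower in the KO-labelled library. Of the 3 members in this count, 0 were higher, 2 were lower, namely Peg10 and Mest, and 1 was neither. Mest reached a mean of 1 FPKM through WT alone, so that it had to differ, and a share of 3 genes carries little weight.

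The 5 other members rest on few fragments. Plagl1, a zinc-finger transcription factor that stands at the centre of a network of co-expressed imprinted genes, was at 0.032 FPKM in WT and listed at 0 in the KO-labelled library. Nnat, which encodes the small membrane proteolipid neuronatin, was at 0.030 FPKM in WT and 0.079 FPKM in the KO-labelled library. Grb10, an adaptor that dampens insulin and IGF receptor signalling, was at 0.0070 and 0.064 FPKM. On the longest annotated transcript of each gene these values correspond to at most an estimated 5.51 fragments for Plagl1 in WT, to 1.20 and 2.77 for Nnat and to 1.04 and 8.36 for Grb10. No fold is given for values of this size. Zim1, a maternally expressed zinc-finger gene next to Peg3, was listed at 0 in WT and at 0.018 FPKM in the KO-labelled library, at most an estimated 3.28 fragments. Ndn, which encodes the growth suppressor necdin, was listed at 0 in both libraries.

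RefSeq promoter windows of the build GRCm38.p6 were read for 8 of the 10 members, all but H19 and Peg10, as 250 bases before each start. The windows below belong to Mest and Peg3, whose values differ in direction, and to Zim1, the maternally expressed neighbour of Peg3 near 0. Capitals mark TGCCGC or its reverse complement GCGGCA, the core motif bound by ZFP57, the zinc-finger protein that keeps methylation at imprinting control regions.
Mest, chr6:30737800-30738049, plus strand: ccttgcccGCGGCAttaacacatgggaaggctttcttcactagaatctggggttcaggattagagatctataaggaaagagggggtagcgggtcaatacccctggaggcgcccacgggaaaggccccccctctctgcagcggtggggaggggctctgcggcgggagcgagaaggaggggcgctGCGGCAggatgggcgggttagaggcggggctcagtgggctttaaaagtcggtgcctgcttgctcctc
Peg3, chr7:6730420-6730669, minus strand: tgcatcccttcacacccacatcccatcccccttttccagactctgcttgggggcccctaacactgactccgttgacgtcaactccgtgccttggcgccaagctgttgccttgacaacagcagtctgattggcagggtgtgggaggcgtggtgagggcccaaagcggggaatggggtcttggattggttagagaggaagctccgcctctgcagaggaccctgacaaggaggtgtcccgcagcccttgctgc
Zim1, chr7:6696433-6696682, minus strand: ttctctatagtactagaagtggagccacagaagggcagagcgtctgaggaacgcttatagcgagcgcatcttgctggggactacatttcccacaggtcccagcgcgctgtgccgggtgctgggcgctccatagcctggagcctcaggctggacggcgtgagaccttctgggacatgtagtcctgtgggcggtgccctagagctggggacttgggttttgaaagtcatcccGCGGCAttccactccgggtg
The Mest window shown held 2 of these motifs, the Zim1 window 1 and the Peg3 window 0. Mest has 2 other windows in the table, 1 that overlaps the window shown and also holds 2 motifs, and 1 at an upstream start, chr6:30733256-30733505, that holds 0. Over the 12 windows of the 8 members, 5 held the motif, in the genes Mest, Meg3, Plagl1 and Zim1, with 2 overlapping windows of Mest among them. Of all 32851 windows of this length, 8.68% held it. The motif contains a CpG dinucleotide, and the median number of these was 11 in the member windows and 6 in all windows. The windows were not matched for this, and its part in the motif counts was not tested. A match of 6 letters is a description of the window and not a measured binding site. The number of CpG dinucleotides was 14 in the windows shown for Mest and Zim1, 8 in that of Peg3 and 7 in the upstream window of Mest.

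Mest also carries the microRNA gene Mir335, which lies within it at chr6:30741314-30741375 of GRCm38.p6 from the first to the last base of its mature forms. Mature microRNAs were not measured here, and the sequences are shown because their host went to a listed value of 0. Capitals mark the seed, bases 2 to 8.
mmu-miR-335-5p: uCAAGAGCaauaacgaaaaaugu
mmu-miR-335-3p: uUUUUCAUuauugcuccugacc
The other microRNA hosts of the set in the RefSeq table were the maternally expressed non-coding RNAs H19, with Mir675, and Meg3, with Mir770 and Mir1906, and neither host had a row.

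The surroundings of each member were then compared, since imprinted genes share control regions with their neighbours. In GENCODE vM39 on GRCm39, Peg10 lies on the plus strand at chr6:4747306-4760517 and begins 0.099 kb from the start of Sgce, which is read in the opposite direction. Sgce encodes epsilon-sarcoglycan and is also paternally expressed. Sgce was at 7.40 FPKM in WT and 13.4 FPKM in the KO-labelled library, a log2 fold change of 0.78, in the direction opposite to Peg10. The FPKM of Peg10 was 2.60 times that of Sgce in WT and 0.350 times in the KO-labelled library.

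Further along the same cluster, Casd1, which encodes an enzyme that O-acetylates sialic acids, was listed at 0 in WT and at 13.3 FPKM in the KO-labelled library. Pon3, a paraoxonase gene, was at 5.87 and 11.7 FPKM, a log2 fold change of 0.88. Pon2, another paraoxonase gene, was at 18.7 and 12.3 FPKM, a log2 fold change of -0.57. Calcr and Ppp1r9a were listed at 0 in both libraries, and Asb4 was at 0.119 and 0.111 FPKM. Within 1 Mb of Peg10, 8 of 15 other genes had a mean of 1 FPKM or more. Of these, 2 were higher and 0 lower, where 2.84% and 3.43% of all genes were. The 2 were Casd1 and Col1a2, a collagen gene, the latter at 237 and 621 FPKM. Casd1 reached the mean through the KO-labelled library alone and so had to be higher. Within this 1 Mb, Peg10 was the gene beyond the limit on the lower side.

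**Figure D2:**
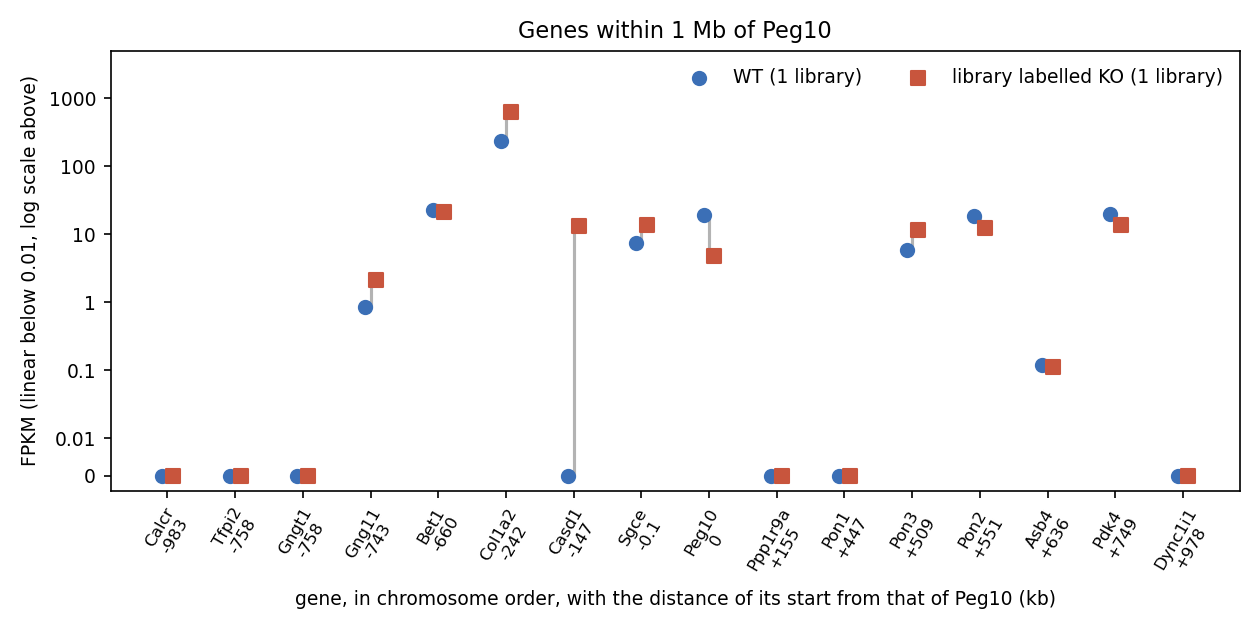
FPKM of the 16 genes with a row within 1 Mb of Peg10 in chromosome order, in WT (circles) and the KO-labelled library (squares), 1 library each, on an axis that is linear below 0.01 and logarithmic above. Peg10 lies lower in the KO-labelled library, at 4.70 against 19.3 FPKM, while Sgce, 0.099 kb from it, lies at 13.4 against 7.40 FPKM and Casd1 at 13.3 FPKM against a listed 0.

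Within 5 Mb of Peg10, the 19 genes with a mean of 1 FPKM or more had a median log2 fold change of 0.26. Of these, 4 were higher and 0 lower by the limit, where 2.84% and 3.43% of all genes were. The 4 include Casd1, which entered through the KO-labelled library alone and so had to be higher. Of the 19 genes, 0 had a value below that of Peg10. After subtraction of the median of 0.26, the value of Peg10 was -2.09. The 37 such neighbours of Mest had a median of 0.10, with 0 higher and 0 lower by the limit, and the place of Mest below them was set by its entry through WT alone. The 41 neighbours of Peg3 had a median of -0.071, with 0 higher and 1 lower by the limit, and 1 of them had a higher log2 fold change than Peg3.

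**Figure D3:**
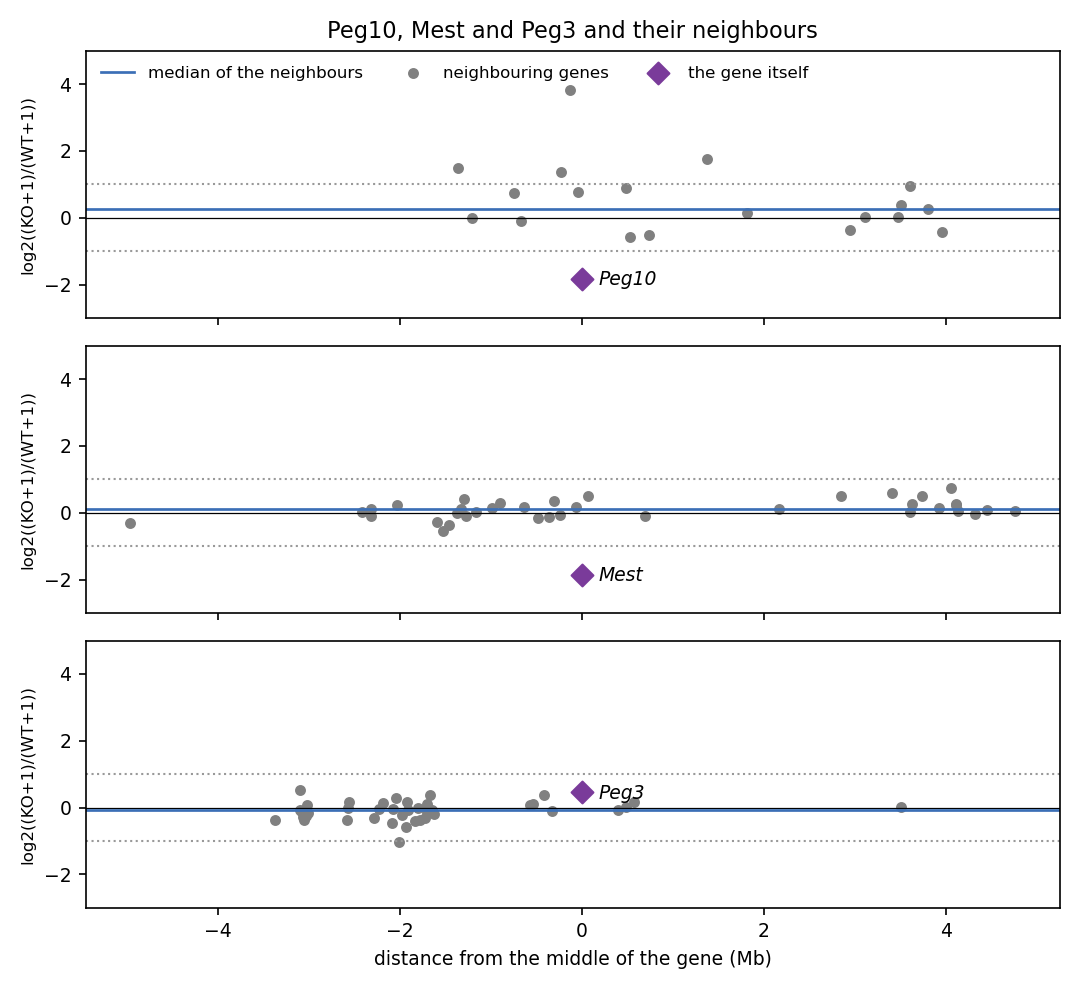
Log2((KO + 1)/(WT + 1)) of Peg10, Mest and Peg3 (diamonds) and of all genes with a mean of 1 FPKM or more within 5 Mb (grey points), by distance in Mb, with the median of the neighbours as a line and dotted lines at 1 and -1, for 1 library of each line. Peg10 and Mest lie below all their 19 and 37 neighbours, and Peg3 lies above all but 1 of 41; the place of Mest was set by its listed 0 in the KO-labelled library.

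Mest, on the plus strand at chr6:30723546-30752058, overlaps Copg2, a coat protein gene of Golgi vesicles that is read from the other strand. Copg2 was at 10.1 FPKM in WT and 14.7 FPKM in the KO-labelled library, a log2 fold change of 0.50. Both library descriptions name a stranded kit, and whether the quantification used the strand is not given in the sources used here. Klf14, in the same cluster, was listed at 0 in both. The nearest gene below Mest with a mean of 1 FPKM or more was Cep41, at 5.67 and 6.54 FPKM, and the nearest above was Mkln1, at 12.6 and 11.7 FPKM. Neither passed the limit.

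Peg3 lies on the minus strand at chr7:6706882-6733468, and its start is 0.109 kb from that of Usp29, a paternally expressed gene read in the other direction. Usp29 was at 0.019 FPKM in WT and 0.027 FPKM in the KO-labelled library, far under Peg3 in both. Zim1 lies on the same strand at chr7:6674268-6699500, 7.38 kb below Peg3. The nearest genes with a mean of 1 FPKM or more were Zfp28, at 3.31 and 3.02 FPKM, and Zfp954, at 2.95 and 2.76 FPKM. Of 7 such genes within 1 Mb of Peg3 other than Peg3 itself, 0 were higher and 0 lower, where 2.84% and 3.43% of all genes were.

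The region around Ndn, at chr7:61995473-62000010, is the mouse counterpart of the human Prader-Willi syndrome region. Ndn and its neighbour Magel2 were listed at 0 in both libraries, and Mkrn3, a further paternally expressed gene, was at 0.196 and 0.216 FPKM. Peg12, an intronless paternally expressed gene 119 kb from Ndn by its start, was at 0.067 FPKM in WT and 2.97 FPKM in the KO-labelled library. Snrpn, which encodes a spliceosomal protein and shares its transcript with Snurf, was at 0.018 and 4.59 FPKM, and Snurf was at 0 and 0.034 FPKM. How reads were divided between Snrpn and Snurf is uncertain. Ube3a, a ubiquitin ligase gene imprinted in neurons, was at 20.1 and 31.4 FPKM, a log2 fold change of 0.62. Peg12 and Snrpn thus had values in the KO-labelled library where Ndn and Magel2 had none.

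The other clusters held few values. Around H19, on the minus strand at chr7:142129262-142133957, Igf2, the paternally expressed fetal growth factor, was listed at 0 in WT and at 0.027 FPKM in the KO-labelled library. Cdkn1c, which restrains the cell cycle, and Phlda2, which restrains growth of the placenta, were listed at 0 in both. Tssc4 was at 34.3 and 38.2 FPKM, and the genes on either side of H19 with a mean of 1 FPKM or more were Mrpl23, at 25.1 and 26.6 FPKM, and Cd81, at 192 and 221 FPKM. Around Meg3, at chr12:109506877-109538165 on the plus strand, Dlk1, Rtl1 and Dio3 were listed at 0 in both, and the nearest genes were Wdr25, at 5.36 and 6.06 FPKM, and Ppp2r5c, at 37.8 and 47.1 FPKM. Blcap, which surrounds Nnat at chr2:157401879-157404573, was at 21.5 and 21.1 FPKM. The genes beside Nnat were Src, at 16.0 and 16.2 FPKM, and Ctnnbl1, at 13.8 and 11.4 FPKM. Beside Plagl1, at chr10:12936248-13007438, Sf3b5 was at 10.3 and 12.8 FPKM and Ltv1 at 18.9 and 19.7 FPKM. Beside Grb10, at chr11:11880498-11988683, Fignl1 was at 34.8 and 39.1 FPKM. On the other side, the nearest gene with a mean of 1 FPKM or more was Sec61g, at 102 and 143 FPKM. It lies 4462 kb away, far beyond 1 Mb. Of the cluster partners of Grb10, Cobl was at 0.234 and 0.030 FPKM and Ddc was listed at 0 in both. None of the genes with a mean of 1 FPKM or more named so far in this paragraph passed the limit. Within 1 Mb, 1 of 18 such genes around Nnat was higher, Myl9, a myosin light chain gene named after its values were seen, at 14.4 and 30.4 FPKM, a log2 fold change of 1.03. Around H19, Meg3, Plagl1 and Grb10, 0 such genes within 1 Mb were higher and 0 lower. Since 2.84% of all genes with such a mean were higher and 3.43% lower, these small counts carry little weight.

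To compare the set with other imprinted genes, a list of 57 further imprinted mouse genes was used, 48 of which had a row. Of these 48, 15 were listed at 0 in both libraries, against 7356 of all 21829 genes. Of the same 48, 23 did not exceed 0.1 FPKM in either library, against 9413 of all 21829 genes. Among the 19 with a mean of 1 FPKM or more, 4 were higher, 1 was lower and 14 were neither, where 2.84% and 3.43% of all genes were. The 4 higher genes were Casd1, Snrpn and Peg12, described above, and Igf2r. All 4 reached the mean through the KO-labelled library alone and so had to be higher, and nothing is read from their number against the share of all genes. Igf2r, the maternally expressed receptor that clears IGF2, lies in no member's cluster and is named after its values were seen. It was at 0.059 FPKM in WT and 12.97 FPKM in the KO-labelled library. The lower gene, also named after its values were seen, was Gatm, the first enzyme of creatine synthesis, which fell from 24.4 to 8.37 FPKM. Gnas, which encodes the stimulatory G protein subunit, was the highest of the list, at 414 and 369 FPKM.

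The 17 genes of the imprinted gene network around Plagl1 overlap both lists, and 15 had a row. Of the 6 with a mean of 1 FPKM or more, 1 was higher, Igf2r, and 2 were lower, Mest and Gatm, where 2.84% of all genes were higher and 3.43% lower. Igf2r and Mest each entered this count through 1 library alone and so had to pass the limit. The other 3, Gnas, Peg3 and Sgce, were neither. Dcn, a matrix proteoglycan of the network that is imprinted in the placenta, was at 0.272 and 1.68 FPKM, a mean under 1.

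Several of these genes were near 0 in one library and expressed in the other. Over the members and the further imprinted genes together, 22 had at least 2 FPKM in 1 library, and 5 of them had at most 0.1 FPKM in the other. Mest had its value in WT alone, and Igf2r, Casd1, Snrpn and Peg12 had theirs in the KO-labelled library alone. Over all 10160 genes with at least 2 FPKM in 1 library, 0.719% had at most 0.1 FPKM in the other, 0.354% with the value in WT and 0.364% with the value in the KO-labelled library. These limits were set after the values were seen, and the 5 genes lie in 4 clusters, on chromosomes 6, 7 and 17. With at least 5 FPKM in the expressing library 2 of the 5 were left, and with at most 0.05 FPKM in the other 3 were left.

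**Figure D4:**
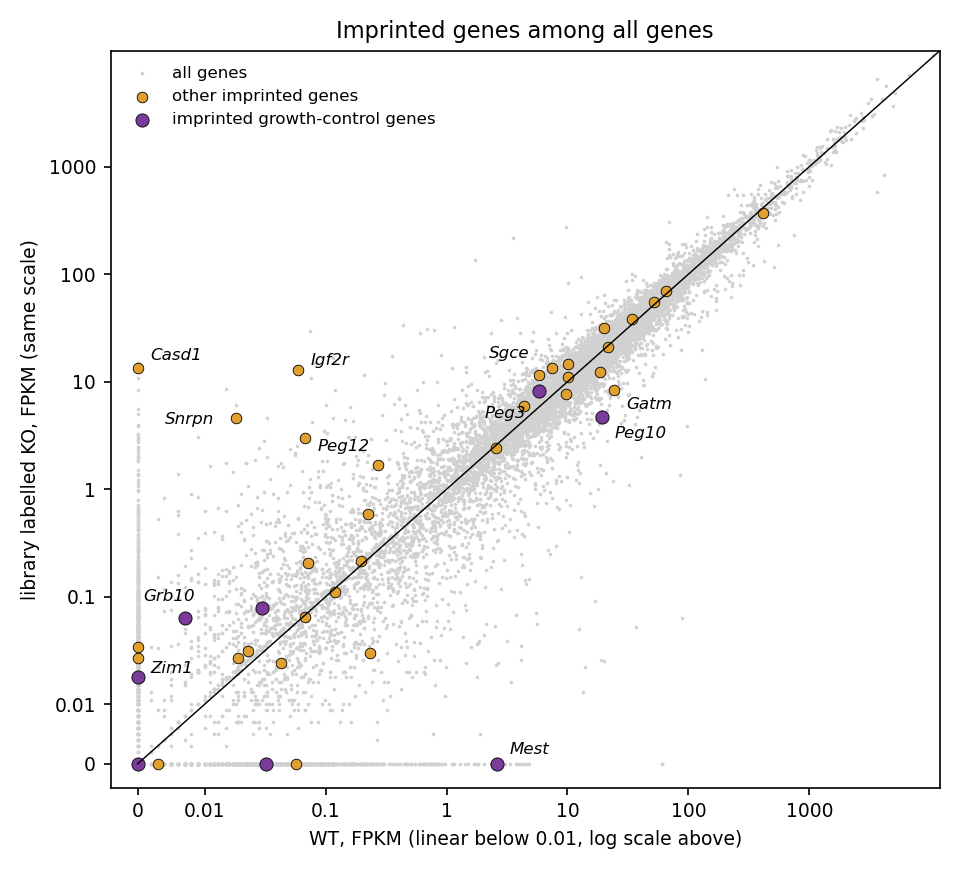
FPKM in WT (x axis) against the KO-labelled library (y axis) for all genes (grey), the other imprinted genes (orange) and the imprinted growth-control genes (purple), 1 library each, both axes linear below 0.01 and logarithmic above, with the line of equal values. Casd1, Igf2r, Snrpn and Peg12 lie at the left, near 0 in WT, Mest lies on the lower edge at 0 in the KO-labelled library, and Peg10 and Gatm lie under the line.

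Genes of DNA methylation and imprint maintenance were also compared, a list that includes Tet1, Tet2, Tet3 and Ctcf. Of 16 such genes, 12 had a mean of 1 FPKM or more, and 0 of them were higher and 0 lower, with a median log2 fold change of -0.020. Of all genes with such a mean, 2.84% were higher and 3.43% lower, so a count of 0 among 12 carries little weight. Dnmt1, the maintenance methyltransferase, was at 29.1 and 36.7 FPKM. Uhrf1, which brings Dnmt1 to newly copied DNA, was at 79.0 and 76.3 FPKM. Zfp57 was at 8.32 and 7.16 FPKM, and Trim28, the corepressor that it recruits, was at 159 and 155 FPKM. Ctcf, which binds the control region between H19 and Igf2, was at 27.1 and 29.4 FPKM. The gene of the 12 that differed most was Dnmt3a, a methyltransferase that sets new methylation, named after its values were seen. It was at 1.08 and 2.86 FPKM, a log2 fold change of 0.90 that stays under the limit with the pseudocount, while the ratio of the levels themselves was 2.66. Outside this count, Tet1, an enzyme that oxidises methylated cytosine and is named after its values were seen, was at 1.35 and 0.190 FPKM, a mean under 1. DNA methylation was not measured here.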

How the data were processed

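RNA from 1 WT and 1 KO culture of C2C12 cells was sequenced. The authors quantified reads per gene and deposited 1 value for each symbol, without naming a unit. These deposited values were read as FPKM, from the column totals and the steps of the low values. If they were TPM of a subset of genes, each library would be rescaled by 1 factor. The study's methods name TrimGalore, STAR, RSEM and GRCm39, whereas the submitters' processing notes name Trim Galore 0.6.6, STAR 2.7.9a, RSEM 1.3.3 and GRCm38. The annotation is not given in the sources used here, and the kit, RNA input and read length also differ between these descriptions.

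The 21853 rows held 24 repeats of a symbol, which were reduced to the row of larger mean. Fold changes used a pseudocount of 1 and genes with a mean of 1 FPKM or more. Differences have no test, because there is 1 library per line. The value of 1 fragment is the median of FPKM times length in kb, between 0.025 and 0.055, over 37 genes in WT and 51 in the KO-labelled library, limits set after the values were seen. Because lengths and assignment are uncertain, no counting interval is given. Low genes had a most frequent ratio of KO to WT of 1.15 over 383 genes. Positions came from GENCODE vM39 (GRCm39), matched by symbol for 10171 of the 10542 genes, and sequences from RefSeq (GRCm38.p6). No coordinates were carried between builds.

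The members and lists were chosen with earlier results of these data known. Named genes were all members, imprinted genes of their clusters with a mean of 1 FPKM or more, and the nearest such genes on either side. To these were added 5 genes of methylation and imprint maintenance. Cluster genes under this limit, single cell type markers, Col1a2 and those stated were named after their values were seen. No gene was named for likeness of pattern, as 2 libraries give 1 difference per gene. Alternatives were another pseudocount (0.1 or 5), the absence of a filter, a mean of 5 FPKM or more, scaling by the median of ratios and subtraction of the median of genes within 5 Mb. The procedure was tested on simulated data. Python 3.11.15, numpy 2.4.6, pandas 2.3.3 and matplotlib 3.10.9 were used.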

Additional observations from a re-analysis of the deposited data

How the results depend on the processing

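Peg10 stayed lower and Peg3 higher in the KO-labelled library under both other pseudocounts, the other scaling and the subtraction of the neighbours' median, with Peg10 between -2.09 and -1.32 and Peg3 between 0.30 and 0.52 on the log2 scale. The value of Mest was -4.76 with a pseudocount of 0.1 and -0.61 with one of 5. Filters do not alter the log2 fold change of a single gene. The count of 2 lower members became 1 with a pseudocount of 5, where Mest left it, and 1 with a mean of 5 FPKM or more, where Mest was not included. The median over members with a mean of 1 FPKM or more, -1.83 over 3 genes, was -0.61 with a pseudocount of 5, -0.69 with a mean of 5 FPKM or more and 0.013 without a filter, which adds the 5 genes near 0. The 4 higher genes among the other imprinted genes became 2 with a pseudocount of 5 and 2 with a mean of 5 FPKM or more. Over all genes the counts of 299 higher and 362 lower were 102 higher and 176 lower under a pseudocount of 5, and 145 higher and 221 lower when only genes averaging 5 FPKM or more entered. The 5 imprinted genes near 0 in one library were 2 with a limit of 5 FPKM and 3 with a limit of 0.05 FPKM, both chosen after the data were seen. No replicate could be left out, as each line has 1 library. For the same reason no paired analysis was possible, and no test was run. Depth limits the members under 0.1 FPKM most, whose values rest on few fragments.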
